A study of Mus musculus with 4 samples.

Results

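The S100a genes encode small calcium-binding proteins, and 9 of them were examined in the cerebellar vermis of wild-type (WT) and Kdm3b+/- mice, in tissue enriched for granule cells (GCE). They were S100a1, S100a4, S100a6, S100a8, S100a9, S100a10, S100a11, S100a13 and S100a16, found by their NCBI gene numbers among the 24532 gene identifiers of the tables. Of the 9 genes, 8 had a mean of at least 1 TPM, transcripts per 1000000 after scaling to transcript length, over the 4 libraries, and S100a4 was below that level. The genes were selected with their difference between these same mice already known, with S100a8 and S100a9 set against the others, so their differences are given as a description and without a test.

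The study asked how gene expression differed in mice with 1 disrupted copy of Kdm3b, which encodes a demethylase of lysine 9 of histone H3. Bulk RNA was sequenced from 2 WT and 2 Kdm3b+/- animals, each giving 1 library. The Kdm3b+/- mice were adult males from 1 gene trap embryonic stem cell line, YTC406, with the pGT0lxf vector inserted in an intron of Kdm3b. The trapped allele is carried by every cell, and the line had been backcrossed to C57Bl/6N and then crossed to C57Bl/6J. The WT mice were adult male littermates without the trapped allele, and neither group had received a treatment that the labels name. The sample labels give the tissue as cerebellum, and the methods describe GCE tissue dissected by hand from vermal slices.

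S100 proteins bind calcium through a pair of EF-hand motifs, and most of them form dimers that attach to partner proteins when calcium rises. S100a8 and S100a9 together form calprotectin, a metal-binding complex that is abundant in the cytosol of neutrophils and is released in inflammation. S100a10, also called p11, is an exception that no longer responds to calcium and sits in a complex with annexin A2 at membranes. In the brain, S100 genes are best known from glia, where S100b is a common astrocyte marker.

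All 9 genes lie on mouse chromosome 3, in 2 clusters. S100a1, S100a13, S100a16, S100a4, S100a6, S100a8 and S100a9 lie in a stretch of 185 kb, and S100a11 and S100a10 follow after a gap of 2.82 Mb, in a stretch of 44.1 kb with 28.8 kb between them. S100a1 (gene 20193, chr3:90511034-90514330, minus strand) and S100a13 (gene 20196, chr3:90514435-90524581, plus strand) are divergent neighbours with starts 105 bases apart. S100a8 (gene 20201, chr3:90669071-90670034, plus strand) and S100a9 (gene 20202, chr3:90692630-90695721, minus strand) point toward each other, and their ends are 22.6 kb apart. The other positions are chr3:90541223-90543151 for S100a16 (gene 67860), chr3:90603770-90606045 for S100a4 (gene 20198), chr3:90612894-90614414 for S100a6 (gene 20200), chr3:93520496-93526288 for S100a11 (gene 20195) and chr3:93555117-93564645 for S100a10 (gene 20194). These are the deposited coordinates, which match the chromosome and lie close to the start of most genes in GRCm38.

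RefSeq promoter windows on GRCm38.p6, from 250 bases before to 50 bases after the annotated start, were found for 8 of the 9 genes. The windows of S100a8 (chr3:90668821-90669120, plus strand) and S100a9 (chr3:90695672-90695971, minus strand) are shown because both genes had lower TPM in the Kdm3b+/- mice, and that of S100a11 (chr3:93520246-93520545, plus strand) is shown beside them as a gene with higher TPM. Each runs 5′ to 3′ on the strand of its gene, and the capitals mark the TATA box (TATAAA) and the GC box, which was searched as GGGCGG.
S100a8: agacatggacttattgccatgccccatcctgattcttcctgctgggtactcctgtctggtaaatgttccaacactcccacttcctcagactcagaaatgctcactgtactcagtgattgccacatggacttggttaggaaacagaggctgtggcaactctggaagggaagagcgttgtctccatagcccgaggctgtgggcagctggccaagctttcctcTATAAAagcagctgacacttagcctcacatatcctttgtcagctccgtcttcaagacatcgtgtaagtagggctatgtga
S100a9: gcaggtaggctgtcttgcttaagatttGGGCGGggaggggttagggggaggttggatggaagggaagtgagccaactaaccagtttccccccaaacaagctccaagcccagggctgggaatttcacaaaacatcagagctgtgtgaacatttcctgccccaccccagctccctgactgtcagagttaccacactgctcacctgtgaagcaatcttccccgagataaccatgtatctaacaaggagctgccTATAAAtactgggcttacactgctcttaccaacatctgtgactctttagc
S100a11: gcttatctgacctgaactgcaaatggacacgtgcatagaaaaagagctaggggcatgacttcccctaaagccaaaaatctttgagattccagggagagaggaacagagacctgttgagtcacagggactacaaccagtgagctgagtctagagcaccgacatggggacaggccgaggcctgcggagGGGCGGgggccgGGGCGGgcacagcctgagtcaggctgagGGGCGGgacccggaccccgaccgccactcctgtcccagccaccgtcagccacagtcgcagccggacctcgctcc

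The windows of S100a8 and S100a9 each held TATAAA, and of the other members with a window S100a4 alone did. TATAAA began 30 bases before the start in S100a8 and 31 bases before it in S100a4, while in S100a9 it began at the annotated start itself. On either strand, 13.6% of all 32851 RefSeq windows held TATAAA. The GC box occurred 3 times in S100a11, once in S100a9 and once in 1 of the windows of S100a16, against 35.7% of all windows with at least 1 match. TGANTCA, the AP-1 motif, occurred 2 times in S100a11 and once in the same S100a16 window, and 7.81% of all windows held it. Of the motifs of myeloid factors searched, GAGGAAG (PU.1) occurred once in S100a8 and once in S100a4, against 13.6% of all windows, and TTGCNNAA (C/EBP) occurred once in S100a9, against 10.8%. All motifs were searched on both strands, and no motif contains another. The windows of S100a8 and S100a9 had a GC content of 50% and 51.3%, near the median of 52.7% over all windows, and that of S100a11 had 61.7%. Those of S100a1 and S100a6, also higher in Kdm3b+/- mice, held no GC box and had 61% and 49.3%. The window of S100a11 thus does not stand for all the higher genes. These matches describe letters in the windows only.

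Aligned sequence came to 4.92 and 5.74 gigabases for the WT libraries and to 5.69 and 6.69 gigabases for the Kdm3b+/- libraries. Kdm3b itself was at 9.10 and 11 TPM in the WT mice and at 8.30 and 7.90 TPM in the Kdm3b+/- mice. Both Kdm3b+/- libraries were below both WT libraries, but the difference of -0.27 on the log2 scale (SE 0.17) did not pass the limma test (adjusted p = 0.424). For the protein, the study reported a significant reduction by immunoblot in both vermis and flocculus of Kdm3b+/- mice. Granule cell genes summed to 5329 and 6297 TPM in the WT and to 5583 and 6107 TPM in the Kdm3b+/- libraries, and the groups overlapped. Purkinje cell genes summed to 1588 TPM in WT mouse 1 and to between 670 and 882 TPM in the other 3 libraries. Nothing in the labels says more of how the mice were sampled, so p-values measure the spread between these 4 libraries.

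S100a8 and S100a9, the calprotectin genes, were the members whose TPM was lower in both Kdm3b+/- libraries than in both WT libraries. S100a8 was at 4.68 and 5.25 TPM in the WT mice and at 0.973 and 0.757 TPM in the Kdm3b+/- mice. S100a9 was at 7.82 and 6.64 TPM in the WT mice and at 1.82 and 0.945 TPM in the Kdm3b+/- mice. For both genes the 2 WT libraries lay well above the 2 Kdm3b+/- libraries, with no overlap. The WT mean of S100a8 was 4.96 ± 0.398 TPM (SD, n = 2) and the Kdm3b+/- mean 0.865 ± 0.153 TPM (SD, n = 2), a 5.74-fold higher TPM in WT. The corresponding means of S100a9 were 7.23 ± 0.833 and 1.38 ± 0.617 TPM (SD, n = 2 each), a 5.23-fold higher TPM in WT. On the log2(TPM + 1) scale, which understates changes of genes this low, the differences were -1.68 for S100a8 and -1.81 for S100a9. In bulk tissue, fewer cells of a type and less RNA per cell cannot be told apart.

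**Figure D1:**
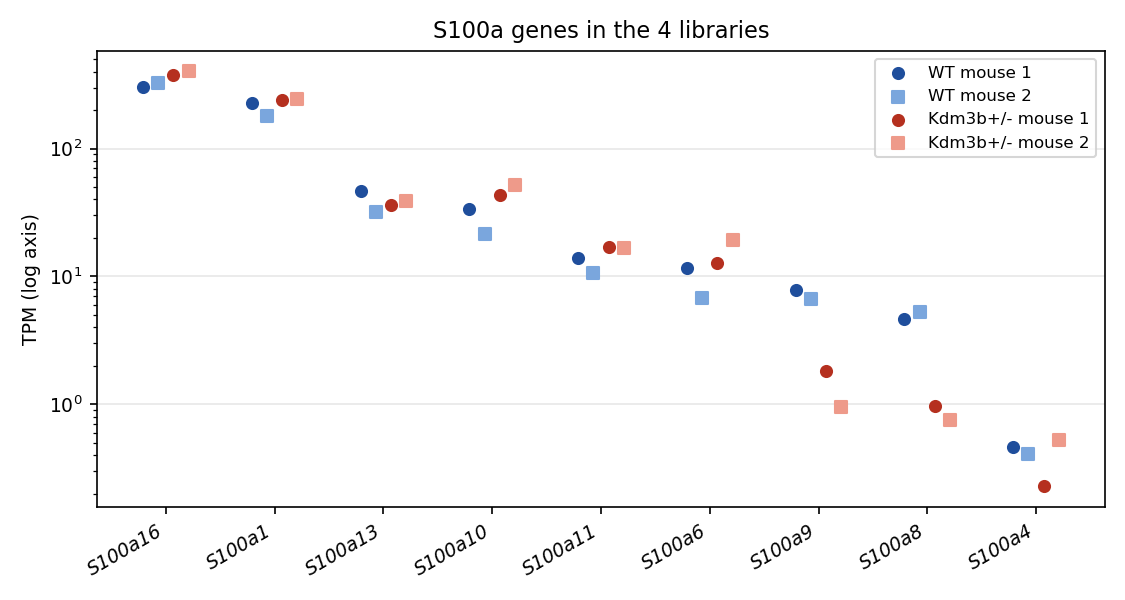
TPM of the 9 S100a genes on a log axis, with a point for each of the 4 libraries and the genes ordered by their mean TPM. The points of S100a9 and S100a8 separate by genotype with the WT libraries on top, while those of S100a16, S100a1, S100a10, S100a11 and S100a6 separate the other way and those of S100a13 and S100a4 overlap.

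The calprotectin signal was small in absolute terms. The deposited coverage, the mean read depth over the exons, was 10.4 and 13 for S100a8 in WT and 2.58 and 2.32 in Kdm3b+/- libraries. For S100a9 it was 17.3 and 16.4 in WT and 4.81 and 2.89 in Kdm3b+/- libraries. Multiplied by transcript length, this gave 5111 and 6380 aligned bases of S100a8 in WT against 1268 and 1140 in Kdm3b+/- libraries, and 8919 and 8445 bases of S100a9 against 2481 and 1490. The Kdm3b+/- libraries thus held fewer aligned bases of both genes, although neither was the shallowest library of the 4. By mean TPM, S100a9 ranked at percentile 20.3 and S100a8 at percentile 14.3 of the 13652 genes tested.

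The ratio between the calprotectin genes overlapped between the genotypes while their levels did not. S100a9 TPM divided by S100a8 TPM was 1.67 and 1.27 in the WT libraries and 1.87 and 1.25 in the Kdm3b+/- libraries. Their summed TPM was 12.5 and 11.9 in the WT libraries and 2.79 and 1.70 in the Kdm3b+/- libraries. As a share of the summed TPM of the 9 genes, this was 1.92% and 2.02% in WT and 0.384% and 0.219% in Kdm3b+/- libraries. Leaving out each library in turn moved the log2 difference of S100a8 between -1.76 and -1.59 and that of S100a9 between -2.08 and -1.54. Over all 15 alternatives in which they could be computed, both genes stayed lower in Kdm3b+/- mice, from -2.40 to -1.19 for S100a8 and from -2.37 to -1.36 for S100a9. Many of these, such as leaving out a library, could not turn the sign of genes without overlap.

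S100a10 and S100a11, the genes of the second cluster, were higher in the Kdm3b+/- mice. S100a10, the annexin A2 partner p11, was at 33.4 and 21.7 TPM in the WT mice and at 43.6 and 52.2 TPM in the Kdm3b+/- mice. Both Kdm3b+/- libraries were above both WT libraries, and the WT libraries were far apart. The means were 27.5 ± 8.29 and 47.9 ± 6.04 TPM (SD, n = 2 each), 1.74-fold higher in Kdm3b+/- mice, with a log2 difference of 0.80. S100a11, a calcium-dependent partner of annexin A1, was at 13.9 and 10.6 TPM in WT and at 17.1 and 16.7 TPM in Kdm3b+/- libraries. The groups did not overlap, and the means of 12.3 ± 2.39 and 16.9 ± 0.243 TPM (SD, n = 2 each) differed 1.38-fold, a log2 difference of 0.45.

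S100a6, also called calcyclin, was the other member with a large positive difference. It was at 11.7 and 6.81 TPM in the WT mice and at 12.7 and 19.4 TPM in the Kdm3b+/- mice. WT mouse 1 and Kdm3b+/- mouse 1 were close to each other, so the distance between the groups came mainly from the remaining pair of libraries. The means were 9.25 ± 3.45 and 16 ± 4.77 TPM (SD, n = 2 each), 1.73-fold higher in Kdm3b+/- mice, with a log2 difference of 0.75.

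S100a16 and S100a1 were the most abundant members, and both were modestly higher in Kdm3b+/- mice. S100a16, a widely expressed member of the family, was at 303 and 324 TPM in the WT mice and at 375 and 401 TPM in the Kdm3b+/- mice. The groups were well separated, with means of 314 ± 14.9 and 388 ± 18.3 TPM (SD, n = 2 each) and a log2 difference of 0.31. S100a1, known from heart muscle as a modulator of calcium release, was at 229 and 180 TPM in WT and at 240 and 246 TPM in Kdm3b+/- libraries. WT mouse 1 lay just under both Kdm3b+/- libraries and WT mouse 2 far below them. The means were 205 ± 35.1 and 243 ± 4.44 TPM (SD, n = 2 each), with a log2 difference of 0.26.

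S100a13 and S100a4 overlapped between the genotypes. S100a13, which takes part in the release of the growth factor Fgf1, was at 46.2 and 32.0 TPM in the WT mice and at 36.1 and 39.1 TPM in the Kdm3b+/- mice. Both Kdm3b+/- libraries lay between the WT libraries, and the log2 difference was -0.03. Its sign changed under 7 of 16 alternatives, with a range from -0.29 to 0.23. Its divergent neighbour S100a1 was higher in both Kdm3b+/- libraries than in both WT libraries, although the 2 genes start 105 bases apart. S100a4, a partner of non-muscle myosin, was at 0.462 and 0.409 TPM in WT and at 0.229 and 0.529 TPM in Kdm3b+/- libraries, too low for a comparison.

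**Figure D2:**
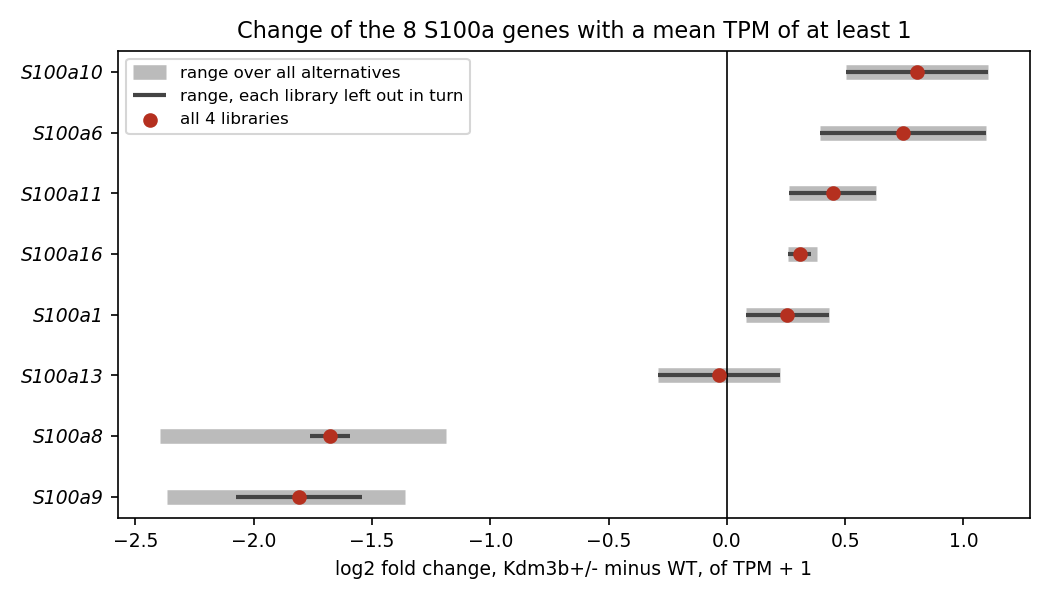
Log2 fold change of TPM + 1, Kdm3b+/- minus WT, for the 8 S100a genes at a mean of 1 TPM or more. Points use all 4 libraries, dark lines span the values found on leaving out 1 library and grey bars span all alternatives, and only the bar of S100a13 crosses 0.

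Of the 8 genes at a mean of 1 TPM or more, 5 had a higher mean log2 value in Kdm3b+/- mice, against 39.6% of all 13652 genes tested. The groups did not overlap for 5 genes that were higher and for 2 that were lower, and the corresponding shares of all genes tested were 19.2% and 32.0%. Since the members were chosen on this contrast, nothing is read from these counts. The median log2 difference was 0.28 over these 8 genes and -0.07 over all genes tested. The 7 genes other than the calprotectin pair summed to 638 and 575 TPM in the WT and to 725 and 775 TPM in the Kdm3b+/- libraries, with no overlap.

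The 5 positive differences depended in size on single libraries. Their direction could not turn when 1 library was left out, since the groups did not overlap. WT mouse 2 had the lowest TPM of the 4 libraries for 5 of the 9 genes, and Kdm3b+/- mouse 2 had the highest for 5. Without WT mouse 2, the log2 difference was 0.08 for S100a1, 0.26 for S100a11, 0.40 for S100a6 and 0.50 for S100a10. Without WT mouse 1, it was 0.43 for S100a1, 0.63 for S100a11, 1.10 for S100a6 and 1.11 for S100a10. Without Kdm3b+/- mouse 2, that of S100a6 was 0.46. S100a16 moved the least of the 5, between 0.26 and 0.36. S100a1, S100a6, S100a10, S100a11 and S100a16 were higher in Kdm3b+/- mice under all 16 alternatives, but most of these could not turn the sign. Changes of pseudocount, filter, shared identifiers, variance trend or replicate block could not do so either. Only changes of unit, scaling, or length and GC correction bore on direction.

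In level, the 9 genes ranged from a mean of 0.408 TPM for S100a4 to 351 TPM for S100a16. By mean TPM, which accounts for length, the order was S100a16, S100a1, S100a13, S100a10, S100a11, S100a6, S100a9, S100a8 and S100a4. S100a16 ranked at percentile 96.5 and S100a1 at percentile 93.6 of the genes tested. The libraries overlapped in TPM between S100a13 and S100a10, between S100a11 and S100a6, between S100a6 and S100a9 and between S100a9 and S100a8, so those neighbours are not separated over all libraries. Within a library, S100a9 was above S100a8 and S100a6 above S100a9 in 4 of 4 libraries, whereas S100a13 was above S100a10 in 2.

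The members are short genes, and transcript length and GC content were therefore considered. The 8 genes have median transcript lengths from 492 to 801 bases, against a median of 1430 over genes with a length. The 2853 genes tested in that range of lengths had a median log2 difference of -0.02. After correction of each library for length and GC content, the median of the 8 members was 0.32, and S100a8 and S100a9 were at -1.71 and -1.84.

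Of the 9 other S100 genes, S100b alone was abundant enough to be tested, and it did not pass the test. S100b, the astrocyte marker on chromosome 10, was at 412 and 322 TPM in the WT mice and at 275 and 412 TPM in the Kdm3b+/- mice. The groups overlapped, and the log2 difference was -0.11 (SE 0.20, limma adjusted p = 0.795). S100a7a was at 0 and 0.137 TPM in WT and at 0.285 and 0.533 TPM in Kdm3b+/- libraries, and S100g was at 0.158 and 0.526 TPM against 0.171 and 0.698 TPM. S100a3 was above 0 only in WT mouse 1, at 0.192 TPM, and S100a14 only in Kdm3b+/- mouse 1, at 0.0697 TPM. S100a2, S100a5, S100a7l2 and S100z were listed at 0 in every library. Of 56 genes other than S100 genes between the first and the last S100a gene of chromosome 3, 51 were listed at 0 in every library and none reached a mean of 1 TPM. Most of these are genes of the skin barrier, such as those of the Sprr and Lce families.

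Known partners and receptors of S100 proteins did not pass the test. Of 19 such genes, 14 were tested with limma and none was called, where a call needs a fold change over 1.2 and an adjusted p under 0.05, and 2 had an unadjusted p under 0.05. Over all 13652 genes, 0.461% were called, 0.117% higher and 0.344% lower, and 17.0% had an unadjusted p under 0.05. The median log2 difference of the 14 genes was -0.10. Anxa2, the annexin partner of S100a10, was at 22.4 and 18.2 TPM in WT and at 20.6 and 22.0 TPM in Kdm3b+/- libraries, with a log2 difference of 0.07 (adjusted p = 0.840). S100a10 TPM divided by Anxa2 TPM was 1.49 and 1.19 in WT and 2.12 and 2.37 in Kdm3b+/- libraries, without overlap. Ahnak, a large scaffold that binds the complex of S100a10 and annexin A2, was at 2.30 and 1.74 TPM in WT against 2.97 and 3.37 TPM in Kdm3b+/- libraries (log2 difference 0.47, adjusted p = 0.267).

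Partners of the other members were similarly without a call. Fgf1, whose release involves S100a13, was at 82.4 and 80.4 TPM in WT and at 47.3 and 61.1 TPM in Kdm3b+/- libraries, a log2 difference of -0.59 (adjusted p = 0.154). The study, with its count test on the same libraries, listed Fgf1 as downregulated. Its RT-qPCR in other mice showed the same tendency without significance. Both Kdm3b+/- libraries were below both WT libraries for Fgf1, while S100a13 overlapped. Anxa1, the partner of S100a11, had a log2 difference of -0.33 (adjusted p = 0.413), opposite in sign to that of S100a11. Cacybp, the calcyclin-binding protein, was at 135 and 115 TPM against 152 and 138 TPM (log2 difference 0.22, adjusted p = 0.450). Ager, a receptor of released S100a8 and S100a9, was at 1.31 and 1.35 TPM in WT and at 0.936 and 1.21 TPM in Kdm3b+/- libraries (adjusted p = 0.680), and Tlr4, the other well-known receptor, was under 0.3 TPM in every library.

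Among 34 genes of other EF-hand proteins, all of which were tested, 1 was called. This was Ncald, which encodes the neuronal calcium sensor neurocalcin delta and fell from 149 and 180 TPM in WT to 57.4 and 64.4 TPM in Kdm3b+/- libraries (log2 difference -1.42, SE 0.15, limma adjusted p = 0.0108). It was also called without each of the 4 libraries in turn. Calm2, a calmodulin gene, and Calb2, the calretinin gene, were abundant and were not called, with Calm2 at 8506 and 7554 TPM in WT and at 9252 and 8269 TPM in Kdm3b+/- libraries (adjusted p = 0.582). The median log2 difference of the list was -0.07, equal to that of all genes tested at this precision.

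Neutrophils hold most of the calprotectin in blood, and 21 other neutrophil genes were set beside S100a8 and S100a9. Of these, 2 could be tested with limma and 0 were called. The list summed to 10.2 and 11.7 TPM in WT and to 3.86 and 4.31 TPM in Kdm3b+/- libraries, 2.68-fold higher in WT. Of the 21, 16 had a higher mean TPM in WT and 2 in Kdm3b+/- mice, and Stfa1, Stfa2l1 and Trem1 were listed at 0 in every library. The groups did not overlap for 7 genes that were lower in Kdm3b+/- libraries, namely Camp, Lcn2, Mmp9, Mpo, Ngp, Prtn3 and Retnlg, and for 1 that was higher, Mmp8. Over all genes tested, 32.0% were lower and 19.2% higher without overlap. The counts of this list are not of the same kind, since most of its genes were under the level required for the test. Nothing particular to this list is read from them. The other 10 genes above 0 overlapped between the groups. All but Mmp9 and Lcn2 were under the level required for the test, and both of those had an unadjusted p under 0.05, as did 17.0% of all genes tested. Lcn2 reached that level, at a mean of 1.01 TPM, only through its WT libraries. Such a filter favours a difference, so nothing is read from its p.

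Genes of the secondary granules of neutrophils did not all have the same order. Camp, the cathelicidin gene, was at 1.46 and 1.61 TPM in WT and at 0.190 and 0.287 TPM in Kdm3b+/- libraries, 6.45-fold higher in WT. Lcn2, which encodes an iron-sequestering lipocalin, was at 1.87 and 1.61 TPM in WT and at 0.358 and 0.190 TPM in Kdm3b+/- libraries, 6.35-fold higher in WT. Its log2 difference was -1.11 (SE 0.20, limma adjusted p = 0.0641), from a test that it entered only through its WT libraries. Leaving out each library in turn moved this difference between -1.20 and -1.01. Ngp was at 0.624 and 1.64 TPM against 0.122 and 0.0853 TPM, and Retnlg was at 0.771 and 0.806 TPM in WT and listed at 0 in both Kdm3b+/- libraries. Ltf, the lactoferrin gene of the same granules, overlapped at 0 and 0.219 TPM against 0.0557 and 0.0843 TPM, and Mmp8 was listed at 0 in both WT libraries and was at 0.0311 and 0.0942 TPM in Kdm3b+/- libraries. Mmp9, a gelatinase, was at 2.07 and 2.98 TPM against 1.31 and 1.21 TPM (log2 difference -0.63, adjusted p = 0.200). The defining surface markers were near 0 in both groups: Ly6g was at 0.0988 and 0.222 TPM against 0 and 0.249 TPM, and Cxcr2 was at most 0.0598 TPM. Csf3r, another receptor gene of neutrophils, overlapped between the groups, at 0.628 and 0.716 TPM against 0.330 and 1.06 TPM. The part of neutrophil content in the difference of S100a8 and S100a9 was not tested.

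**Figure D3:**
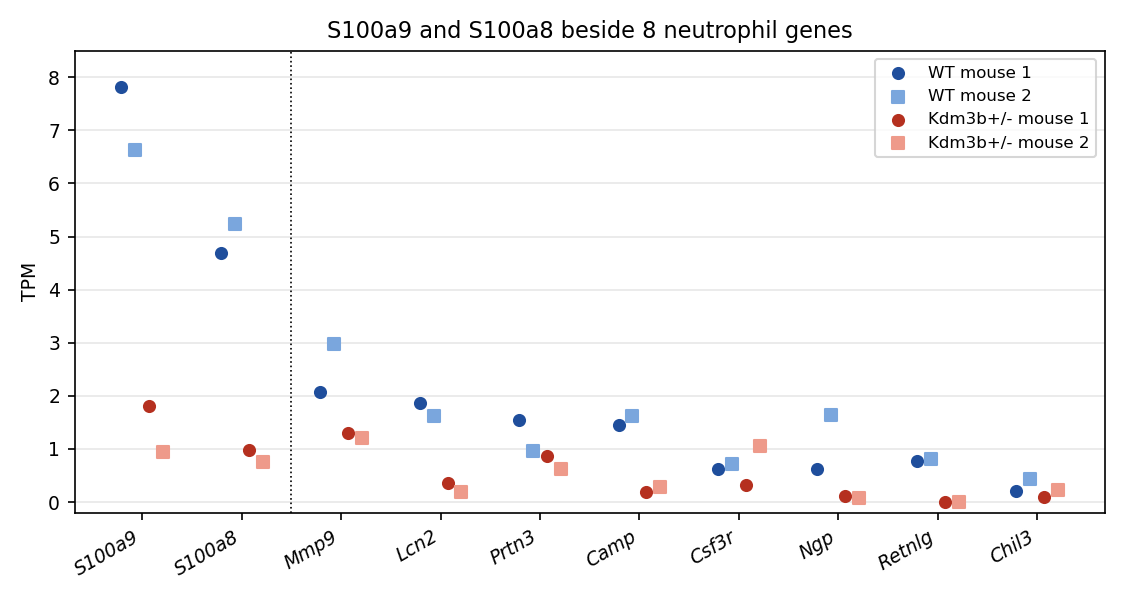
TPM of S100a9 and S100a8, left of the dotted line, and of the 8 neutrophil genes with the highest mean TPM, with a point for each of the 4 libraries on a linear axis. The WT points lie above the Kdm3b+/- points for S100a9, S100a8, Mmp9, Lcn2, Prtn3, Camp, Ngp and Retnlg, and overlap with them for Csf3r and Chil3.

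Genes of other blood cells held no call. Red cell genes summed to 1766 and 1144 TPM in WT and to 1929 and 1355 TPM in Kdm3b+/- libraries, with overlap, and 0 of 5 tested were called (4 at an unadjusted p under 0.05). Within that sum, Hbb-bs was at 506 and 8.08 TPM in WT and at 0.00768 and 0.142 TPM in Kdm3b+/- libraries, the order of S100a8 and S100a9, but it is nearly identical to Hbb-bt and the division of reads between them is uncertain. Without it the list summed to 1260 and 1136 TPM in WT and to 1929 and 1354 TPM in Kdm3b+/- libraries, higher in both of the latter. Without each library in turn, 1 or 2 red cell genes were called, Hbb-bs among them each time. Platelet genes summed to 5.67 and 3.40 TPM in WT and to 8.78 and 6.39 TPM in Kdm3b+/- libraries, with 0 of 3 called (1 at an unadjusted p under 0.05).

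Monocyte and border macrophage genes, another possible source of calprotectin RNA, summed to 22.3 and 23.8 TPM in WT and to 40.2 and 34.9 TPM in Kdm3b+/- libraries. Lyz2, a lysozyme gene of myeloid cells, made up most of this sum, at 19.7 and 21 TPM against 26.6 and 31.2 TPM (log2 difference 0.48, limma adjusted p = 0.191). Ly6c2 was at 10.6 TPM in Kdm3b+/- mouse 1 and listed at 0 in the other 3 libraries. The border macrophage genes Cd163, at 0.639 and 0.434 TPM against 0.242 and 0.241 TPM, and Lyve1, at 0.157 and 0.141 TPM against 0 and 0.0758 TPM, were lower in both Kdm3b+/- libraries. Ms4a7, at 0.905 and 0.791 TPM against 0.941 and 1.31 TPM, and Plac8 were higher in both, while Mrc1 and F13a1 overlapped. Without Lyz2 and Ly6c2 the list summed to 2.63 and 2.81 TPM in WT and to 3.03 and 3.71 TPM in Kdm3b+/- libraries. Of the 2 genes tested none was called, with 1, Lyz2, at an unadjusted p under 0.05. Ly6c2 passed the filter only through Kdm3b+/- mouse 1. Without Kdm3b+/- mouse 2 its log2 difference was 3.53, from that library alone set against zeros, and nothing is read from it. Microglia genes summed to 352 and 359 TPM in WT and to 365 and 387 TPM in Kdm3b+/- libraries, and 0 of 10 were called, also at an unadjusted p under 0.05.

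Over 13 lists of cell type genes, 4 of 90 tested genes (4.44%) were called, against 0.461% of all genes. At an unadjusted p under 0.05 there were 33, where 17.0% of all genes tested were. The lists were chosen with earlier results of these data known, so nothing is read from these shares. The meningeal fibroblast list summed to 70.4 and 64.5 TPM in WT and to 41.3 and 44.3 TPM in Kdm3b+/- libraries. In it, Fmod fell from 13.7 and 15.7 to 2.53 and 2.76 TPM (log2 difference -2.10, limma adjusted p = 0.00168). Without overlap, 6 genes of the whole list were lower and 2 higher. Among its 7 genes tested, 5 were lower and 1 higher, against 32.0% and 19.2% of all genes tested. The higher ones of the whole list were Col3a1 and Lum, with Lum at 1.29 and 0.984 TPM in WT against 3.40 and 2.86 TPM. Astrocyte and Bergmann glia genes, whose list is the nearest to known S100 expression in the brain, summed to 4072 and 3381 TPM in WT and to 3056 and 2837 TPM in Kdm3b+/- libraries. Aldoc made up most of this sum, and without it the list overlapped, at 925 and 914 TPM in WT against 922 and 1013 TPM in Kdm3b+/- libraries. Of the 11, Aqp4 (log2 difference 1.10, limma adjusted p = 0.0330) and Fabp7 (1.49, limma adjusted p = 0.0133) rose, while 7 of the list had a lower mean. Neither was called without WT mouse 1, and Fabp7 was not called without WT mouse 2. In the oligodendrocyte list Mobp fell (log2 difference -0.93, limma adjusted p = 0.0133) and was not called when either WT mouse was left out.

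The remaining cell type lists held no call. They were those of endothelial cells, at 8 genes tested and a median log2 difference of -0.06, mural cells, at 6 genes and 0.07, choroid plexus and ependyma, at 5 genes and 0.42, Purkinje cells, at 10 genes and -0.48, and granule cells, at 12 genes and 0.05. At an unadjusted p under 0.05 they had 2, 1, 2, 3 and 3 genes, where 17.0% of all genes tested did. All 10 Purkinje cell genes had a lower mean in Kdm3b+/- mice, with WT mouse 1 the highest library in their sum. Without WT mouse 1, 5 were higher and 5 lower, and their sum was 670 TPM in WT mouse 2 against 882 and 703 TPM. The sum of the 7 S100a genes other than the calprotectin pair separated the genotypes with the Kdm3b+/- libraries on top. This followed from the choice of members, and S100a16 and S100a1 made up most of that sum. The platelet, microglia, and monocyte and border macrophage sums given above had the same order. Nothing is read from a list sum that shares it. Among the lists of this paragraph, the endothelial sum had that order, at 469 and 446 against 524 and 533 TPM. So did that of mural cell genes, at 163 and 172 against 173 and 204 TPM, where the nearest libraries were almost equal. Vtn, the largest part of the mural sum, overlapped, at 118 and 126 against 123 and 155 TPM. Rgs5 alone of that list was higher without overlap. The choroid plexus and ependymal sum also had that order, at 44.9 and 47.4 against 56.7 and 53.9 TPM. The endothelial rise lay mainly in Itm2a, at 116 and 128 against 201 and 198 TPM. Pecam1 and Slco1a4 were lower without overlap. Otx2, the largest part of the choroid plexus and ependymal sum, overlapped, at 24.9 and 28.7 against 30.4 and 27.0 TPM. Foxj1 was lower without overlap, while Tmem212, Ccdc153, Rsph1 and Aqp1 were higher. Ttr, Folr1, Kl and Kcnj13 had means of at most 0.523 TPM. The part of any of these cell types in the S100a differences was not tested.

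**Figure D4:**
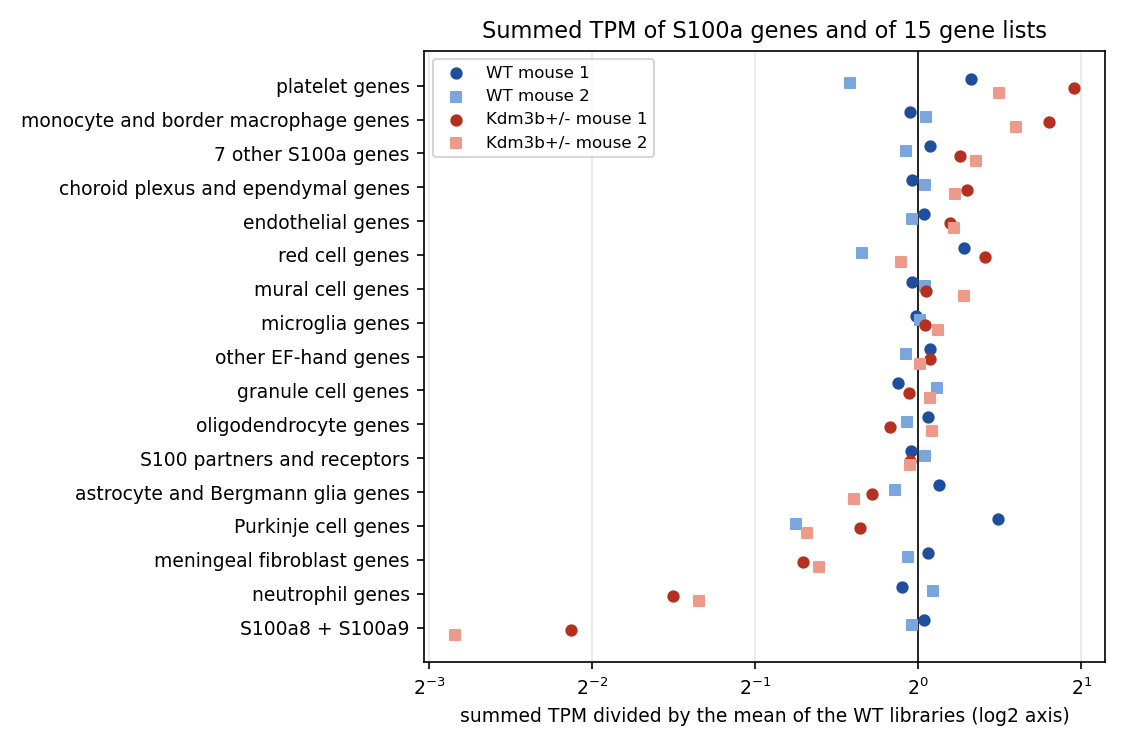
Summed TPM of the calprotectin genes, of the 7 other S100a genes and of 15 gene lists, divided by the mean of the WT libraries on a log2 axis, with a point for each library. The sum of S100a8 and S100a9 and that of the neutrophil genes have the lowest Kdm3b+/- values, and platelet and monocyte genes have the highest.

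Genes with a profile over the 4 libraries most like that of the S100a genes were found by the root mean square distance between centred log2(TPM + 1) profiles, which is a description over 4 libraries only. The nearest to the mean of S100a8 and S100a9 were Phc3 at a distance of 0.0962, Ccdc3 at 0.154, Slc24a4 at 0.171, Prelp at 0.180 and Fam107a at 0.191. Phc3, which encodes a Polycomb protein, was at 4.91 and 5.74 TPM in WT and at 1.28 and 0.807 TPM in Kdm3b+/- libraries. Of the neutrophil genes, Mmp9 and Lcn2 alone were at a level that entered this search. Its scale understates changes of low genes, and Lcn2, 6.35-fold higher in WT, was at a log2 difference of -1.11 on it. Its absence from the nearest genes is therefore not read as unlikeness. The nearest to the mean of the 7 other members were Rgs10 at 0.0205, Nudt2 at 0.0263, 3010001F23Rik at 0.0266, Gamt at 0.0320 and Dbi at 0.0321. Dbi, which encodes a binding protein of acyl-CoA, was at 844 and 656 TPM in WT and at 889 and 966 TPM in Kdm3b+/- libraries, with WT mouse 2 the lowest as for S100a1, S100a6, S100a10 and S100a11.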

How the data were processed

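Bulk RNA sequencing of GCE tissue from 2 WT and 2 Kdm3b+/- mice was examined, grouped by the genotype labels. The authors trimmed the reads, aligned them with STAR and quantified genes with StringTie. Versions, genome build and annotation are not given in the sources used here. The authors deposited, per library and gene, the coverage (mean read depth over exons, not normalized), the FPKM (scaled to length and mapped fragments) and the TPM (scaled to length and to a total of 1000000). Entries sharing a gene identifier, as for 220 of 24532, were summed. Symbols were found for 24462 identifiers. Of the identifiers, 99.6% lay on the same chromosome in GRCm38 and 90.4% started within 1 kb of the position there. Aligned bases per library were computed from coverage and FPKM, and per member from coverage and transcript length. Read counts per gene were not recovered.

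TPM is not a count, so the count test of the study was not repeated. Genes at a mean of 1 TPM or more were tested on log2(TPM + 1) with the trended moderated test of limma version 3.58.1 (lmFit, eBayes; R version 4.3.3). Genotype was the sole term, and the Benjamini-Hochberg adjustment ran over 13652 genes. A call needed a fold change over 1.2 and an adjusted p under 0.05. An exact two-sided permutation test of 2 against 2 mice cannot give a p below 0.333 and was not used. The fit was tested on simulated data. Tables and figures used Python version 3.11.15, pandas version 2.3.3, NumPy version 2.4.6 and Matplotlib version 3.10.9.

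The members and gene lists were chosen with earlier results of these data known. Named were the members, other S100 genes and Kdm3b, the called and the 3 most abundant genes of related lists, and the 5 genes nearest in profile to each group of members. A gene that this rule names is not reported here. Partners and receptors, neutrophil, blood and macrophage genes beyond that rule were named for their known role, after their values were seen, and genes left out of a sum were chosen in the same way. Of 9 red cell genes listed, 8 were matched. Alternatives changed the pseudocount (0.1), unit (FPKM), filter (none, or 5 TPM on average), scaling, treatment of shared identifiers, variance trend, replicate block, length and GC correction, and left out each library.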

Additional observations from a re-analysis of the deposited data

How the results depend on the processing

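The direction of the 8 S100a differences held under every alternative, apart from S100a13. For the others, which did not overlap, only changes of unit, scaling, or length and GC correction could have turned it. Counts of calls moved more. The 63 calls over all genes became 39 with FPKM, 1 without a filter on low values, 37 without the variance trend and between 21 and 188 with a library left out. Their split of 16 higher and 47 lower became 29 and 40 with median-ratio scaling, and 36 and 53 with the length and GC correction. Without a filter, the EF-hand, meningeal fibroblast, astrocyte and Bergmann glia, and oligodendrocyte lists had 0 calls. Without the trend, the neutrophil list had 1 call, the astrocyte list 1 and the oligodendrocyte list 0. Red cell genes had 1 call with a pseudocount of 0.1, and endothelial genes had 1 with a filter at a mean of 5 TPM, with median-ratio scaling and with the length and GC correction. With a library left out, calls ranged from 0 to 1 for the neutrophil, monocyte, Purkinje cell and granule cell lists, from 1 to 2 for the red cell and meningeal lists, from 0 to 4 for the astrocyte list and from 0 to 2 for the oligodendrocyte list. The cause was not tested. Such a fit leaves 1 genotype with a single library, which is assumed to vary like the others.

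Same-numbered mice are different animals, and their deviations correlated at 0.121 across genes (0.0764 after the length and GC correction). With the replicate block, 600 genes were called, or 272 with the correction as well. The block gave 1 call for partners and receptors, 3 for EF-hand, 1 for neutrophil, 1 for red cell, 2 for meningeal, 2 for endothelial, 5 for astrocyte, 2 for oligodendrocyte, 3 for Purkinje cell and 1 for granule cell genes. With the correction and the block, the counts were 2 for EF-hand, 1 for neutrophil, 1 for red cell, 2 for meningeal, 2 for endothelial, 5 for astrocyte, 2 for oligodendrocyte, 1 for Purkinje cell and 2 for granule cell genes. The Kdm3b difference was -0.27 with the block. Depth limits S100a8, S100a9, S100a4 and the neutrophil genes most, since they lie at or below a few TPM.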
